A study of Mus musculus with 19 samples.

Results

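The 6 genes described here encode the platelet-derived growth factors and their receptors: the ligands Pdgfa, Pdgfb, Pdgfc and Pdgfd, and the receptor tyrosine kinases Pdgfra and Pdgfrb. They were chosen by name as the whole mouse family of ligands and receptors, and they are 6 of the 27998 genes in the deposited matrices. Each of the 6 had at least 1 UMI (a counted transcript molecule) in the cells of all 19 libraries. Levels are given as CPM, the UMIs of a gene per 1000000 UMIs of all genes, with both summed over the cells of a cell type in a library. Because the protocol reads the 3′ end of a transcript, levels are compared for 1 gene between cell types or groups and not between genes.

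PDGF ligands are secreted dimers, and receptor alpha and receptor beta are tyrosine kinases of mesenchymal cells. PDGF-A and PDGF-C act mainly through receptor alpha, PDGF-B binds both receptors, and PDGF-D acts mainly through receptor beta, while the C and D ligands need a protease to remove an inhibitory domain before they bind. In textbook tissue, endothelial PDGF-B holds pericytes, which carry receptor beta, at the vessel wall, and receptor alpha marks fibroblasts and connective tissue progenitors, including those of tendon and muscle.

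Cells came from the hind limb of mice with a dorsal partial-thickness burn and a cut Achilles tendon, a model of trauma-induced bone formation in soft tissue, and were taken at day 0 (4 libraries), day 3 (3), day 7 (4) and day 21 (4) after the injury. A further 4 libraries came from mice given a CD47 activating peptide, called p7N3 by the study, at 10 mg/kg into the peritoneum each day from 3 days before to 3 days after the injury. These were harvested at day 7, which the labels give for 3 of the 4. By the study's text the earliest time point precedes the injury, although the labels list the burn for it too. The comparison mice of the peptide group were given PBS by the same text, while the labels name no vehicle. For the series, but for no library, the labels name C57 mice and LysmCre/Tgfb1fx/fx mice, which lose Tgfb1 through a Cre that acts in myeloid cells, so the genotype behind each value below is not known.

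The 39541 cells kept were 571 to 3668 per library. The median UMIs per cell were 3414 to 4693 at day 0 and 6534 to 12406 in the other libraries, so a transcript is counted least precisely at day 0. No pair of libraries shared more than 22 cell barcodes, or 1.256% of the smaller library. Clusters were named from markers that include none of the 6 genes. Stromal-like cells (10422) are named for Col1a1, Dcn, Lum and other matrix genes, monocyte/macrophage-like cells (14184) for Csf1r, Adgre1 and C1qa, endothelial-like cells (2825) for Pecam1 and Cdh5, and pericyte/smooth muscle-like cells (1908, called pericyte-like below) for Rgs5, Notch3 and Myh11. The short name pericyte-like covers pericytes and smooth muscle cells alike. Of the 182 such cells of day 0, 142 were in a cluster led by the smooth muscle genes Pln and Myh11. Another 3273 cells had tenocyte and chondrocyte markers, 403 had Schwann cell markers, and 2739 cells in 5 clusters were left without a name. The names were rebuilt here and are not those of the study.

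Pdgfra was read mainly in stromal-like cells. Its level there was 203.6 ± 113 CPM (mean ± SD, n = 19 libraries, range 99.8 to 434). The tenocyte/chondrocyte-like cells had 49.1 ± 16.2 CPM (n = 14), below the stromal-like cells in 14 of 14 libraries that held both, and the ranges did not overlap. Schwann-like cells had 10.0 CPM and the remaining types less. Stromal-like cells held 80.5% ± 7.64 of the Pdgfra UMIs of a library and 36.4% ± 8.48 of all UMIs. A further 9.21% of the Pdgfra UMIs lay in unnamed clusters, mainly 1 led by the adipocyte genes Cfd, Car3 and Adipoq, whose Pdgfra level at day 0 was 327 ± 59.0 CPM. This cluster carried 14 of 14 stromal markers beside 3 of 3 adipocyte markers.

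Pdgfrb had its highest level in pericyte-like cells and a lower one in the connective tissue types. The pericyte-like level was 389.8 ± 71.5 CPM (n = 19, range 270.0 to 529), against 77.3 ± 16.1 CPM in stromal-like, 62.3 ± 23.8 CPM in tenocyte/chondrocyte-like and 27.3 ± 10.1 CPM in Schwann-like cells. Pericyte-like cells were above stromal-like cells in 19 of 19 libraries, with ranges that did not overlap. Stromal-like and tenocyte/chondrocyte-like levels overlapped. Stromal-like cells are the larger population, and they held more of the receptor transcripts, 47.0% ± 12.9 of the Pdgfrb UMIs of a library against 29.5% ± 6.67 in pericyte-like cells. Another 10.3% lay in unnamed clusters, and at day 0 this was 32.4% ± 6.60. The unnamed cluster led by Rbp7, Ablim3 and Fabp4, which carried 9 of 9 endothelial and 8 of 9 pericyte markers, had 282 ± 80.7 CPM of Pdgfrb at day 0.

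Detection in single cells was compared at equal depth. After each cell was thinned to 1500 UMIs, Pdgfra was seen in 22.2% of 10378 stromal-like cells (exact binomial 95% interval 21.4 to 23.0, counting error only) and in 0.292% of dendritic-like cells, a type that should lack it. Without thinning the shares were 79.0% at a median of 14610 UMIs and 1.85% at a median of 6602 UMIs. Pdgfrb was seen in 45.1% of 1897 thinned pericyte-like cells (42.8 to 47.3; 89.1% without thinning, median 8367 UMIs), in 10.5% of stromal-like cells and in 0.438% of dendritic-like cells. Within stromal-like cells, a Pdgfrb UMI was found in 10.5% ± 2.07 of the cells with Pdgfra and in 11.1% ± 1.97 of those without, and the first share was higher in 9 of 19 libraries. Pdgfra was seen in 22.2% of thinned and 79.0% of unthinned stromal-like cells. Many cells counted as without Pdgfra after thinning therefore carried it before. For this reason the similar shares cannot show whether both receptors lie in the same cells. Thinning left out 298 day 0 cells as too shallow and none of the other groups.

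Pdgfb, the ligand that endothelium uses to recruit mural cells, was highest in endothelial-like cells. Its level there was 145.8 ± 46.7 CPM (n = 19, range 79.4 to 225), above that of every other named type in every library that held both. The next types were Schwann-like cells at 32.3 ± 28.3 CPM and lymphatic endothelial-like cells at 24.2 ± 15.7 CPM, and pericyte-like and monocyte/macrophage-like cells had 10.6 and 10.0 CPM. Endothelial-like cells held 59.6% ± 16.3 of the Pdgfb UMIs and 9.92% ± 8.65 of all UMIs. In thinned cells Pdgfb was seen in 20.4% of 2714 endothelial-like cells (18.9 to 21.9; 54.8% without thinning) and in 1.07% of dendritic-like cells.

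Pdgfa, a ligand of receptor alpha, was highest in cells that carry receptor beta. Pericyte-like cells had 369.5 ± 74.2 CPM (n = 19) and Schwann-like cells 277 ± 79.5 CPM (n = 12). Pericyte-like cells were higher in 8 of the 12 libraries with both, and these neighbours in the order overlapped. Levels were lower in lymphatic endothelial-like (83.9 ± 44.1 CPM), tenocyte/chondrocyte-like (72.9 ± 46.4 CPM), endothelial-like (46.7 ± 21.8 CPM), stromal-like (33.3 ± 15.3 CPM) and monocyte/macrophage-like cells (26.0 ± 7.95 CPM). The pericyte-like cells held 30.3% ± 5.64 of the Pdgfa UMIs with only 4.80% ± 1.81 of all UMIs, and stromal-like cells held 24.1% ± 13.8. Pdgfa was seen in 36.4% of thinned pericyte-like cells (34.3 to 38.6; 83.9% without thinning), in 29.6% of 392 thinned Schwann-like cells (25.1 to 34.4; 70.7% without thinning) and in 0.390% of dendritic-like cells.

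Pdgfc and Pdgfd, the ligands with the inhibitory domain, had overlapping levels in several types. Pdgfc had 38.4 ± 12.2 CPM in tenocyte/chondrocyte-like cells (n = 14), 32.4 ± 9.31 CPM in stromal-like cells and 25.6 ± 8.05 CPM in monocyte/macrophage-like cells (n = 19 each), and the ranges of these neighbours overlapped. Stromal-like cells held 51.6% ± 16.6 of the Pdgfc UMIs. Pdgfd had its highest level in endothelial-like cells, 47.1 ± 24.4 CPM (n = 19), followed by 27.3 ± 22.5 CPM in tenocyte/chondrocyte-like, 13.5 ± 11.4 CPM in pericyte-like and 13.0 ± 5.96 CPM in stromal-like cells. The endothelial-like level was above the stromal-like and the pericyte-like level in 19 of 19 libraries, although the ranges over all libraries overlapped. Stromal-like cells held 39.1% ± 17.6 of the Pdgfd UMIs and endothelial-like cells 30.8% ± 20. Pdgfd had no UMI in the monocyte/macrophage-like cells of any day 0 or day 21 library, which allows up to 2.17 and 0.543 CPM (3 counts over the group's summed UMIs). The levels of all 6 genes by cell type are drawn in the plot of levels over named types.

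**Figure D1:**
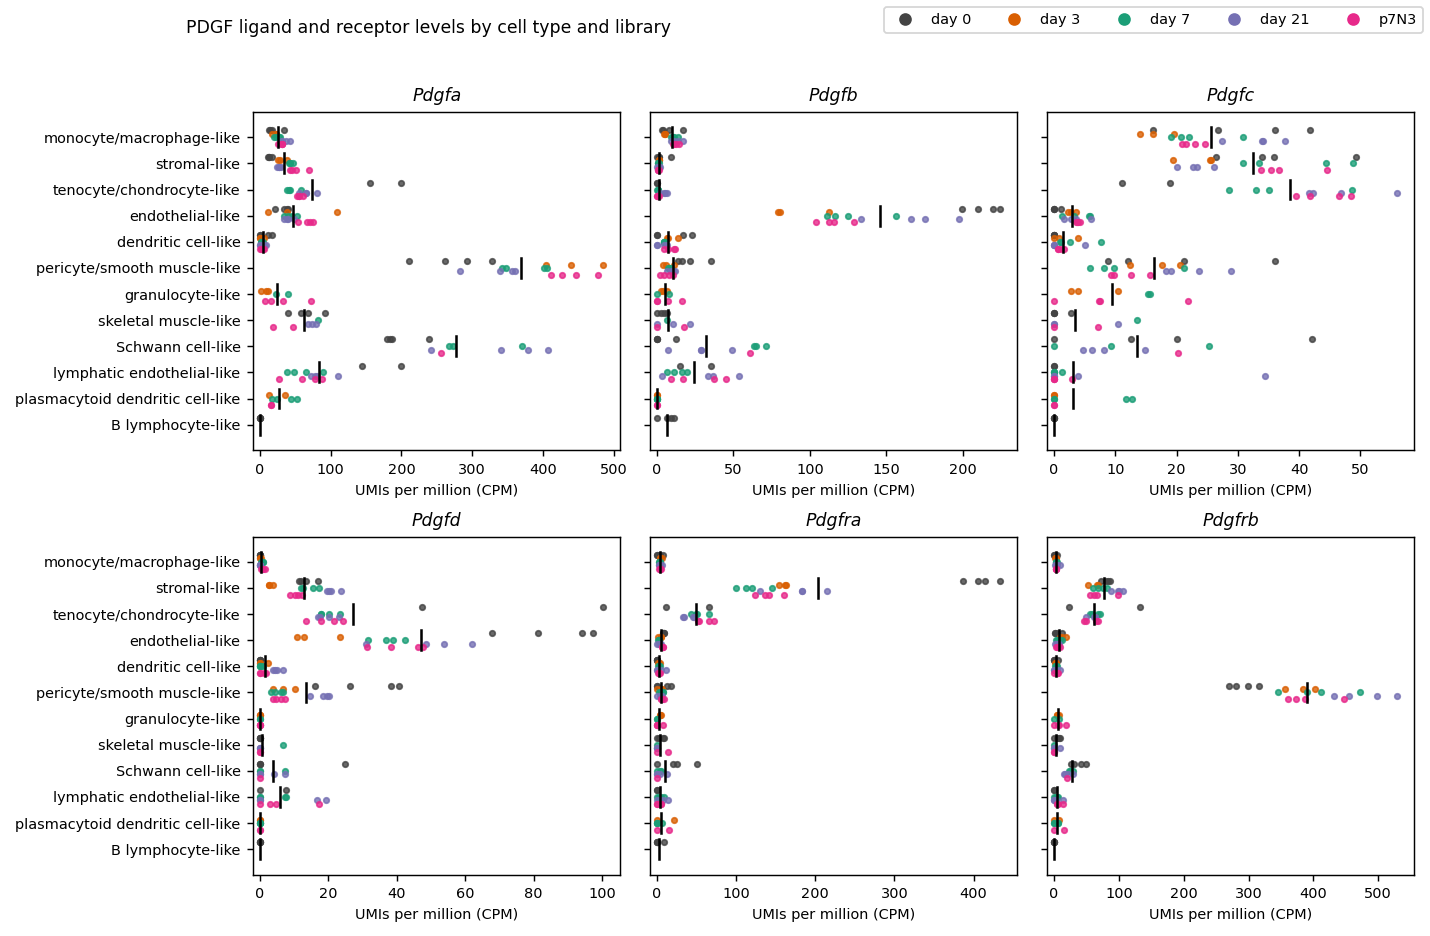
Level of each PDGF gene (CPM) in 12 named cell types, with a point per library coloured by group and a line at the mean. Pdgfra sits highest in stromal-like cells, Pdgfrb and Pdgfa in pericyte/smooth muscle-like cells, and Pdgfb and Pdgfd in endothelial-like cells, while the Pdgfc levels of 3 types overlap.

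Pericyte-like cells thus had the highest levels of both the ligand Pdgfa and the receptor Pdgfrb, while the highest Pdgfra and Pdgfb levels lay in other types. Across the 12 cell types with a level the Pearson correlation of log2(CPM + 1) was 0.68 for Pdgfa and Pdgfrb, 0.75 for Pdgfc and Pdgfrb and 0.72 for Pdgfc and Pdgfra. It was 0.65 for Pdgfd and Pdgfrb, 0.64 for Pdgfd and Pdgfra and 0.24 for Pdgfa and Pdgfra. For Pdgfb it was -0.05 with Pdgfrb and -0.27 with Pdgfra. In pericyte-like cells a Pdgfa UMI was present in 37.5% ± 6.79 of thinned cells with Pdgfrb and 33.9% ± 7.02 of those without, higher in 8 of 13 libraries. In endothelial-like cells a Pdgfd UMI was present in 9.11% of cells with Pdgfb and 6.94% of those without, higher in 10 of 14 libraries. In stromal-like cells the shares with Pdgfa were 3.78% with Pdgfra and 4.26% without. All of these shares are of thinned cells, and many cells counted as without a gene carried it before thinning. Pdgfrb was seen in 45.1% of thinned and 89.1% of unthinned pericyte-like cells. For Pdgfb in endothelial-like cells the values were 20.4% and 54.8%. The shares therefore cannot show whether the paired genes lie in the same cells.

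The clusters inside a type differed in level. Among pericyte-like cells, Pdgfrb at day 21 was 604 ± 42.3 CPM in the cluster led by Higd1b, Rgs5 and Colec11, genes of capillary pericytes, and 269 ± 47.3 CPM in the cluster led by the smooth muscle genes Pln and Myh11. Pdgfb ran the other way, with group means of 23.4 to 25.6 CPM in the Pln-led cluster and 0 to 5.72 CPM in the Higd1b-led one. Pdgfa was high in both, with group means of 278 to 489 CPM and 228 to 429.8 CPM. Among stromal-like cells at day 7, Pdgfa was 56.9 ± 8.56 CPM in the cluster led by Crabp1, Kif26b and Prss35 and 20.5 CPM in that led by Sfrp4, Clec3b and Gdf10. Pdgfc had the same order in these clusters, at 53.6 and 18.1 CPM. Pdgfra had the opposite order, at 92.1 ± 3.61 and 177 ± 32.9 CPM. Pdgfd in endothelial-like cells at day 21 was 70.1 ± 9.07 CPM in the cluster led by Timp4, Aqp7 and Tcf15 and 25.5 ± 17.4 CPM in that led by Fam167b, Selp and Tmem252.

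**Figure D2:**
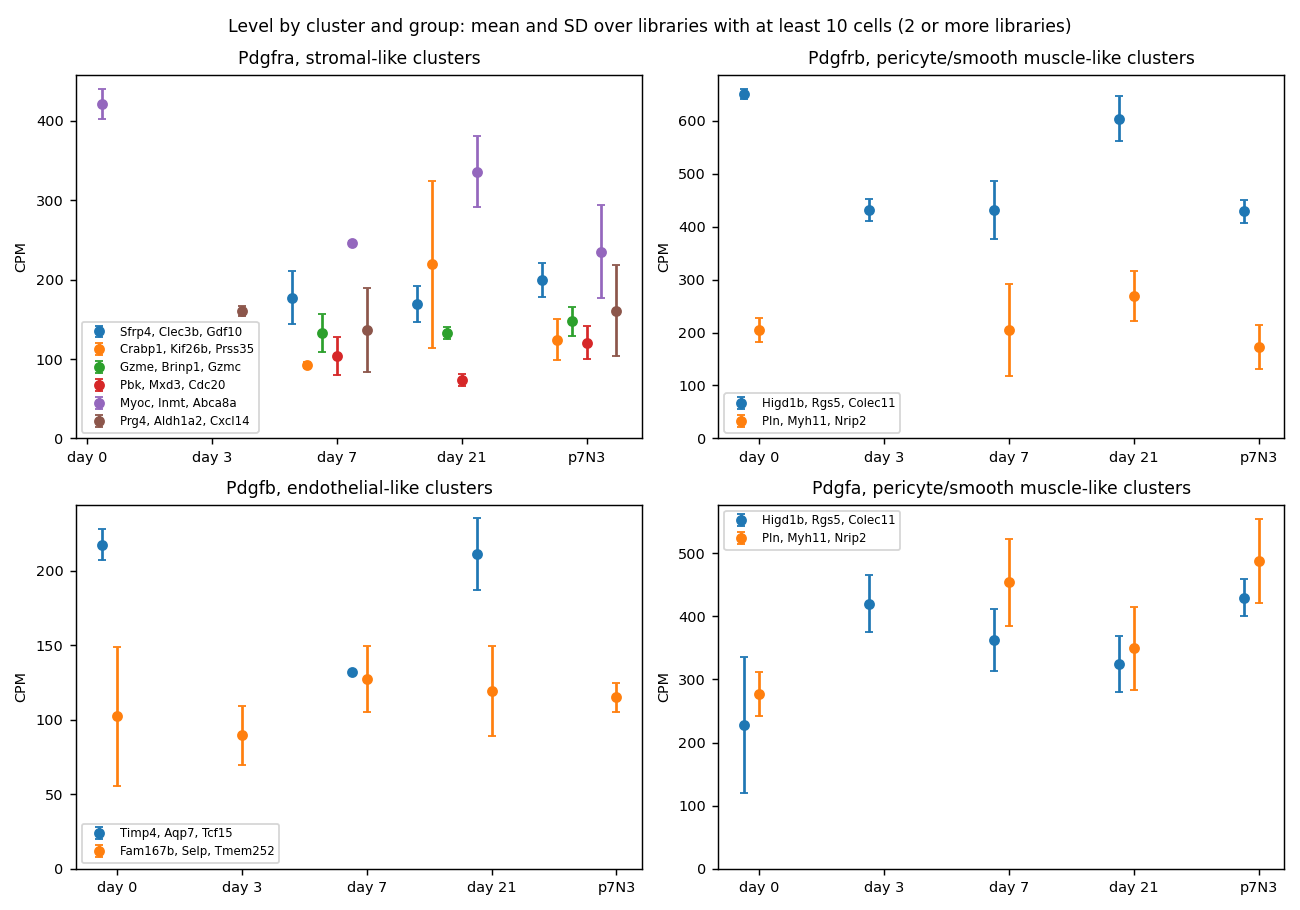
Level (CPM, mean and SD over libraries with at least 10 cells) by group in clusters named by their 3 leading genes, for stromal-like Pdgfra, pericyte/smooth muscle-like Pdgfrb and Pdgfa, and endothelial-like Pdgfb. The Myoc-led cluster has the highest stromal-like Pdgfra at day 0 and day 21, and Pdgfrb is higher in the Higd1b-led than in the Pln-led cluster wherever both have a value.

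The shares of the ligand UMIs that lay in each cell type differed over the time course. Endothelial-like cells held a mean of 79.5% of the Pdgfb UMIs at day 0, 30.9% at day 3, 57.1% at day 7 and 66.4% at day 21, while their share of all UMIs was 25.3%, 2.80%, 5.26% and 8.27%. The monocyte/macrophage-like share of Pdgfb was 1.14% at day 0 and 29.2% at day 3, beside 8.02% and 46.9% of all UMIs. Unnamed clusters held 4.61% to 29.1% of the Pdgfb UMIs over the 19 libraries (mean 12.4%), beside a mean of 7.46% of all UMIs. For Pdgfd the endothelial-like share was 66.6% at day 0 and 23.7% at day 3, and the stromal-like share 12.4% and 57.2%. These shares are descriptions without a test, and they move with the make-up of the sample.

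For Pdgfc, the tenocyte/chondrocyte-like share was 3.49% at day 0, 0.12% at day 3, 17.8% at day 7 and 56.4% at day 21. The stromal-like share of Pdgfc was 62.4%, 46.2%, 59.8% and 24.0% at the same days. The border between these types moved with the clustering, as described further below. Pericyte-like cells held 27.3% to 34.3% of Pdgfa over the 4 days, while the stromal-like share was 7.88% at day 0 and 35.4% at day 7. Of the receptors, Pdgfra stayed with stromal-like cells (72.2% to 93.3% over the 4 days).

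**Figure D3:**
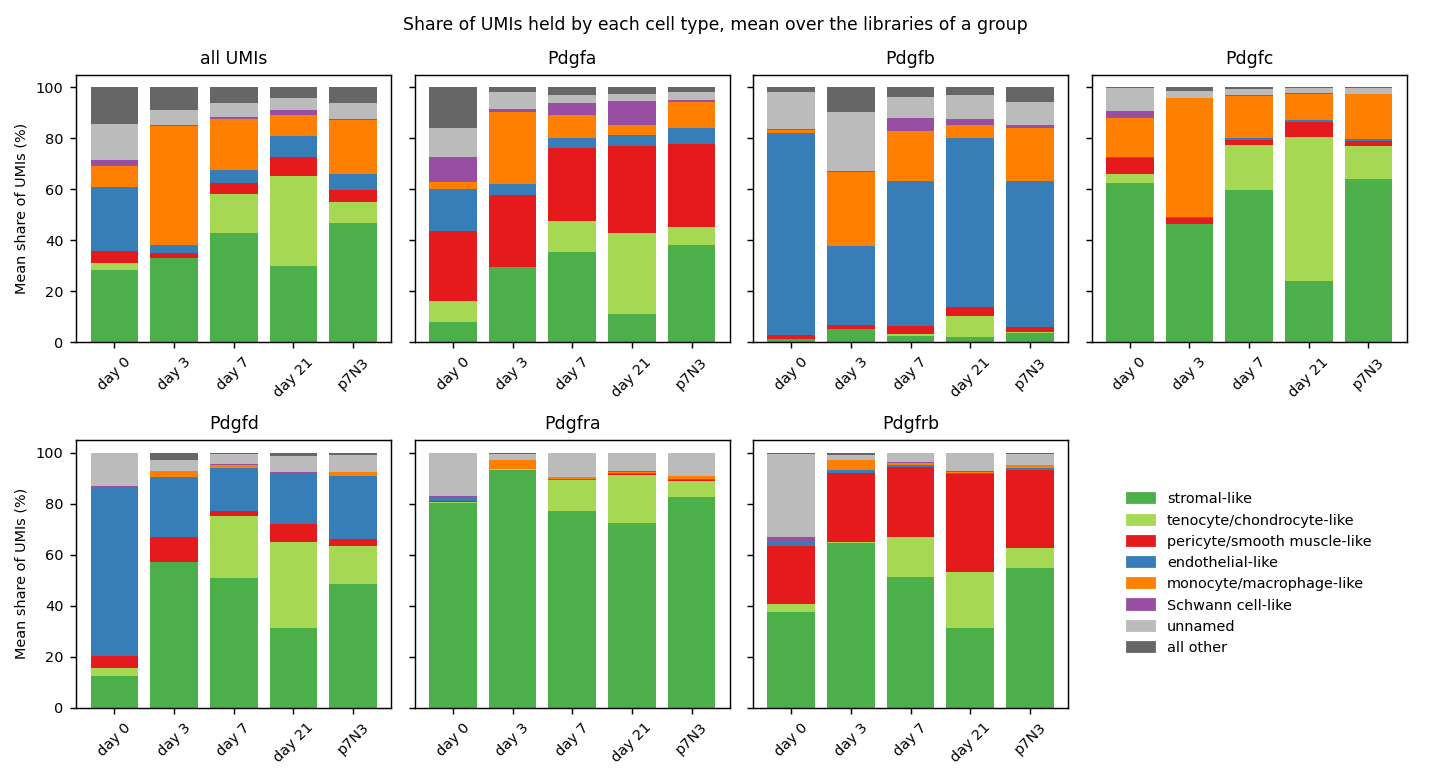
Mean share (%) of the UMIs of each PDGF gene, and of all genes, that lay in each cell type, by group. The stacked shares show Pdgfra in stromal-like cells in every group, and the endothelial-like share of Pdgfb and Pdgfd lower at day 3 than at day 0.

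The whole-site sums of a library are taken over all of its kept cells. How fully these cells represent the injury site was not measured. In such sums fewer cells of a type and less RNA per cell cannot be told apart. All 4 comparisons of days below share libraries with each other, and the counts of genes changed were taken at an adjusted p of 0.05 in edgeR's quasi-likelihood test with Benjamini-Hochberg adjustment over all genes tested. Log2 differences are scaled by TMM factors, which set most genes as unchanged. Against scaling by total UMIs these factors moved the median over all genes by 0.41 for day 3 against day 0, by -0.19 for day 7 against day 3 and by 0.19 for day 21 against day 0 in the whole-site sums, and by at most 0.23 in the sums of a cell type. The share of called genes that were higher was 50.9%, 50% and 53.3% in these 3 comparisons with TMM factors and 32.2%, 68.4% and 34.4% with total UMIs. No called PDGF gene turned sign with total UMIs.

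At the whole site, 5 of the 6 genes changed from day 0 to day 3, against 70.2% of all genes tested. Pdgfb was 60.7, 91.1, 54.1 and 66.8 CPM in the day 0 libraries and 8.66, 6.79 and 9.35 CPM in the day 3 libraries. The lowest day 0 library was well above the highest day 3 library, and Pdgfb fell by 2.62 on the log2 scale (SE 0.229, adjusted p = 1.16e-08). Pdgfd was 26.9 to 35.9 CPM at day 0 and 1.31 to 2.37 CPM at day 3, and fell by 3.74 (SE 0.196, adjusted p = 2.69e-11). Both genes were read mostly from endothelial-like cells at day 0, whose share of all UMIs was lower at day 3, as given above. Pdgfra fell by 0.98 (SE 0.182, adjusted p = 0.000106) from 104 to 177 CPM to 51.5 to 65.9 CPM. Pdgfrb fell by 0.54 (SE 0.144, adjusted p = 0.00272) from 55 to 66.8 CPM to 27.2 to 34.3 CPM.

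Pdgfc rose by 0.43 (SE 0.144, adjusted p = 0.0123) in the same comparison, although its mean level was 16.2 CPM at day 0 and 16.6 CPM at day 3. That call was lost without day 0 replicate 4 (0.32, adjusted p = 0.0513) and with scaling by total UMIs (0.03, adjusted p = 0.869). Pdgfa had a log2 difference of -0.13 (SE 0.132, adjusted p = 0.385), and it was called with scaling by total UMIs.

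By day 7, 4 of the 6 genes had changed from day 3 at the whole site, beside 56.0% of all genes tested, and all 4 rose. Pdgfd rose by 2.58 on the log2 scale (SE 0.185, adjusted p = 1.26e-08) to 9.81 to 14.7 CPM. Pdgfrb rose by 0.73 (SE 0.140, adjusted p = 0.000268) to 56 to 63.8 CPM. Pdgfc and Pdgfa rose by 0.57 and 0.43, and the Pdgfa call was lost without day 3 replicate 2 (0.28, adjusted p = 0.063). Pdgfb (0.26, adjusted p = 0.311) and Pdgfra (0.04, adjusted p = 0.853) were not called.

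The whole-site sums of day 21 differed from those of day 7 for 4 of the 6 genes, beside 45.6% of all genes tested, and all 4 rose. Pdgfb, 8.7 to 15.3 CPM at day 7 and 13.3 to 26.3 CPM at day 21, rose by 0.86 (SE 0.195, adjusted p = 0.00167), and these ranges overlapped. Pdgfd rose by 0.70, Pdgfrb by 0.63 and Pdgfa by 0.45. Pdgfc and Pdgfra differed by 0.02 and 0.11 and were not called.

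Between day 0 and day 21 all 6 genes changed, beside 50.8% of all genes tested. Pdgfc (1.02, adjusted p = 8.6e-06), Pdgfrb (0.82, adjusted p = 6.39e-05) and Pdgfa (0.74, adjusted p = 7.77e-05) were higher at day 21. Pdgfb (-1.51, adjusted p = 8.91e-06), Pdgfra (-0.83, adjusted p = 0.000505) and Pdgfd (-0.45, adjusted p = 0.0203) were lower. The Pdgfd call was lost without day 0 replicate 4 (-0.38, adjusted p = 0.0647).

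Within the stromal-like cells between day 0 and day 3, 3 of the 6 genes changed, against 60.3% of all genes tested in these cells: Pdgfra and Pdgfd fell and Pdgfa rose. Pdgfra was 434, 386, 406 and 414 CPM in the day 0 libraries and 154, 163 and 162 CPM in the day 3 libraries. Every day 3 library was below every day 0 library, and Pdgfra fell by 1.19 on the log2 scale (SE 0.142, adjusted p = 5.42e-07). Pdgfd was 11.9, 13.4, 16.9 and 11.3 CPM at day 0 and 2.68, 3.7 and 2.67 CPM at day 3, again without overlap. It fell by 1.96 (SE 0.237, adjusted p = 6.64e-07).

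Pdgfa in these cells was 12.5, 11.9, 16.9 and 12.2 CPM at day 0 and 37.8, 25.4 and 27.6 CPM at day 3, so that all 3 day 3 libraries were higher. It rose by 1.32 (SE 0.219, adjusted p = 3.18e-05). The call was lost when tenocyte/chondrocyte-like cells were added to the stromal-like ones (0.38, adjusted p = 0.11). Pdgfrb (-0.20, adjusted p = 0.313), Pdgfc (-0.42, adjusted p = 0.0784) and Pdgfb (-0.99, adjusted p = 0.294) were not called. The Pdgfc difference was called in 6 alternative runs.

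The stromal-like cells of the groups came from different clusters. Of the 918 stromal-like cells of day 0, 882 were in the cluster led by Myoc, Inmt and Abca8a, and of the 811 of day 3, 761 were in the cluster led by Prg4, Aldh1a2 and Cxcl14, which held 4 day 0 cells. Pdgfra was 420.6 ± 19 CPM in the Myoc-led cluster at day 0 and 161 ± 5.84 CPM in the Prg4-led cluster at day 3. At day 21 the Myoc-led cluster, with 247 cells, had 336 ± 44.4 CPM of Pdgfra, while the Sfrp4-led cluster, with 1091 cells, had 169 ± 22.8 CPM. A change in the cells present and a change in each cell cannot be told apart in the sums of this type.

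The sequences just upstream of Pdgfra and Pdgfd are shown because these 2 genes fell together in stromal-like cells at day 3 and Pdgfd rose again at day 7 while Pdgfra fell further. Each is the 250 bases before the RefSeq gene start on GRCm38.p6, on the plus strand, at chr5:75152001-75152250 for Pdgfra and at chr9:6168236-6168485 for Pdgfd, with the letters TATAAA in capitals.
Pdgfra: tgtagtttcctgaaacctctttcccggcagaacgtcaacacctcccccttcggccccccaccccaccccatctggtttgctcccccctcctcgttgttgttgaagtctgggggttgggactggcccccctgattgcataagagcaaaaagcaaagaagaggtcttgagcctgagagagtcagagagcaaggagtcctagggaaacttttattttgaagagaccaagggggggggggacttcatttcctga
Pdgfd: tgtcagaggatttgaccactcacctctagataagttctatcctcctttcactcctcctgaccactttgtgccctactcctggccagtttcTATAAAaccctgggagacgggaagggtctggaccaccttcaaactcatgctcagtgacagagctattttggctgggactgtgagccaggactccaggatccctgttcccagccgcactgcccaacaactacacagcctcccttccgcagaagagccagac
The Pdgfd sequence holds TATAAA 1 time and the Pdgfra sequence 0 times, searched on both strands, against 12.4% of 32851 mouse upstream sequences of this length. Neither holds GGGCGG (32.7% of all) or CACGTG (6.0%), and the base composition is close, with 54.4% G and C for Pdgfra and 53.6% for Pdgfd. These are matches of letters in a short window and say nothing of a factor. By GENCODE vM21 on GRCm38, the Pdgfra gene lies at chr5:75152292-75198215 and the Pdgfd gene at chr9:6168584-6378850, both on the plus strand.

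In stromal-like cells, 4 of the 6 genes changed from day 3 to day 7, beside 41.7% of all genes tested. Pdgfd returned to 12, 15.5, 17.1 and 12.5 CPM, each above every day 3 library, and rose by 2.09 on the log2 scale (SE 0.179, adjusted p = 5.09e-08). Pdgfc was 25.5, 19.5 and 25.6 CPM at day 3 and 30.8, 48.8, 33.5 and 44.4 CPM at day 7, without overlap, and rose by 0.63 (SE 0.162, adjusted p = 0.00388). Pdgfra reached its lowest levels at day 7, with 146, 99.8, 120.5 and 112 CPM, and fell by 0.54 (SE 0.135, adjusted p = 0.00334). Pdgfa rose by 0.40 (SE 0.147, adjusted p = 0.0338) to 40.7 to 47.2 CPM. The Pdgfa call was lost without day 3 replicate 2 (0.31, adjusted p = 0.143), day 3 replicate 3 (0.34, adjusted p = 0.13) or day 7 replicate 4 (0.36, adjusted p = 0.0761), and without the cluster led by cell cycle genes (0.26, adjusted p = 0.135).

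Stromal-like cells had 5 of the 6 genes changed from day 7 to day 21, beside 39.7% of all genes tested. Both receptors rose. Pdgfra was 183, 183, 215 and 129.6 CPM at day 21, and rose by 0.59 (SE 0.127, adjusted p = 0.00106), though its lowest day 21 library lay below the highest day 7 library. Pdgfrb was 82.3, 67.2, 59.7 and 76 CPM at day 7 and 101, 106, 98 and 87.9 CPM at day 21, without overlap, and rose by 0.48 (SE 0.139, adjusted p = 0.00927). Pdgfd rose by 0.57 (SE 0.140, adjusted p = 0.00312) to 19.6 to 23.6 CPM, its highest stromal-like levels.

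Of the other ligands, Pdgfa fell by 0.69 (SE 0.144, adjusted p = 0.000882) to 24.1 to 29.1 CPM, and Pdgfc fell by 0.73 (SE 0.156, adjusted p = 0.00102) to 20 to 26.1 CPM. Neither overlapped with day 7. Pdgfb had 0 to 1.62 CPM at day 21 and was not called (0.95, adjusted p = 0.233). With tenocyte/chondrocyte-like cells added, the differences from day 7 to day 21 were 0.23 for Pdgfa, 0.01 for Pdgfc, 0.07 for Pdgfra and 0.22 for Pdgfrb, and none of these 4 was called. The added cells held 35.2% of all UMIs at day 21 and 15.3% at day 7.

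Compared with day 0, 3 of the 6 genes differed in stromal-like cells at day 21, beside 29.8% of all genes tested. Pdgfa (1.03, SE 0.220, adjusted p = 0.00135) and Pdgfd (0.71, SE 0.194, adjusted p = 0.00859) were higher. Pdgfra was lower (-1.13, SE 0.13, adjusted p = 2.08e-06), with every day 21 library below every day 0 library. Pdgfrb (0.36, adjusted p = 0.0899) and Pdgfc (-0.52, adjusted p = 0.0534) were not called. In alternative runs the Pdgfc difference was called 11 times, DESeq2 among them, and the Pdgfrb difference 3 times.

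**Figure D4:**
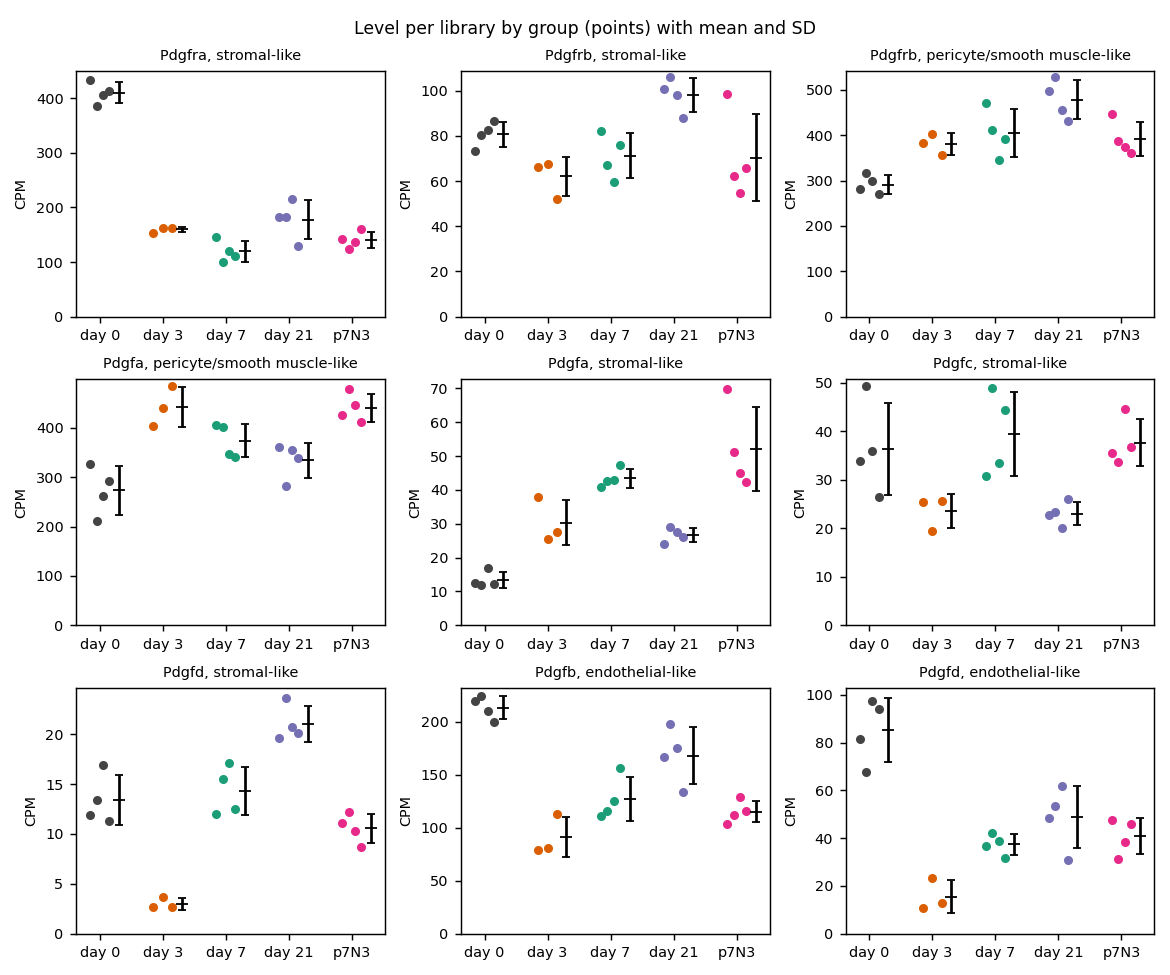
CPM per library in each group, with the mean and SD, for 9 pairs of gene and cell type. Stromal-like Pdgfra is highest at day 0, stromal-like Pdgfd is lowest at day 3, pericyte/smooth muscle-like Pdgfrb is lowest at day 0, and endothelial-like Pdgfb and Pdgfd are highest at day 0.

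In pericyte-like cells 5 of the 6 genes could be tested, since Pdgfra was too low. Of these, 4 changed from day 0 to day 3, beside 40.4% of all genes tested. Pdgfrb was 281, 316, 298 and 270.0 CPM at day 0 and 383, 402 and 356 CPM at day 3. All day 3 libraries were higher, and Pdgfrb rose by 0.42 on the log2 scale (SE 0.127, adjusted p = 0.0096). Pdgfa was 328, 211, 262 and 292 CPM at day 0 and 404, 439.9 and 485 CPM at day 3, also without overlap, and rose by 0.70 (SE 0.144, adjusted p = 0.00041).

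Pdgfd in these cells was 38.3, 26.3, 16.1 and 40.5 CPM at day 0 and 3.73, 6.6 and 10.3 CPM at day 3, and fell by 2.14 (SE 0.455, adjusted p = 0.000535). These Pdgfd levels rest on few UMIs, 9, 3, 4 and 9 at day 0 and 3, 3 and 7 at day 3. Pdgfb fell by 1.61 (SE 0.577, adjusted p = 0.0281) from 13.5 to 35.1 CPM to 3.73 to 11 CPM. The Pdgfb call also rests on few UMIs and was lost without any of 4 libraries (day 0 replicates 1 and 2 and day 3 replicates 1 and 3), with values of -1.54 to -1.20. The summed level of 14 stromal markers in the pericyte-like cells was 1545 to 3085 CPM at day 0 and 10050 to 13770 CPM at day 3, with no marker at 0. Of the pericyte-like cells, 40 at day 0 and 69 at day 3 were in the Higd1b-led cluster and 142 and 26 in the Pln-led cluster, and Pdgfrb at day 0 was 649.9 and 204 CPM in these clusters. The part of either in the changes above was not tested.

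Between day 3 and day 7, 0 of the 5 genes changed in pericyte-like cells in edgeR, beside 10.1% of all genes tested. Pdgfa (-0.38, adjusted p = 0.0597) was the 1 gene at an unadjusted p under 0.05, and DESeq2 called 1 of the 5, Pdgfa. From day 7 to day 21, 3 of the 5 rose, beside 31.5% of all genes tested. The Higd1b-led cluster held 475 pericyte-like cells at day 7 and 350 at day 21, and the Pln-led cluster held 87 and 232. The part of this shift between clusters in the rises was not tested. Pdgfd rose by 1.89 (SE 0.295, adjusted p = 3.35e-05), from 3.14 to 6.73 CPM to 14.6 to 20.2 CPM without overlap. Pdgfc rose by 1.07 (SE 0.306, adjusted p = 0.00927), a call lost without day 21 replicate 4 (0.84, adjusted p = 0.0664). Pdgfrb rose by 0.29 (SE 0.101, adjusted p = 0.0317) from 345 to 471 CPM to 432 to 529 CPM.

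The last of these calls was lost in DESeq2 (0.23, adjusted p = 0.0553) and without any of 6 libraries (day 7 replicates 2, 3 and 4, day 21 replicates 1 and 2, and p7N3 replicate 3), with differences of 0.21 to 0.28 where it was lost. Against day 0, 1 of the 5 genes differed at day 21, beside 24.5% of all genes tested. This was Pdgfrb (0.67, SE 0.117, adjusted p = 0.000145). By cluster, Pdgfrb was 649.9 ± 9.96 CPM at day 0 (2 libraries) and 604 ± 42.3 CPM at day 21 in the Higd1b-led cluster, and 204 ± 22.3 and 269 ± 47.3 CPM in the Pln-led cluster. The Higd1b-led cluster held 40 of the pericyte-like cells of day 0 beside 142 in the Pln-led cluster, and 350 beside 232 at day 21.

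In endothelial-like cells 4 of the 6 genes could be tested. From day 0 to day 3, 3 of the 4 changed, beside 56.1% of all genes tested. Pdgfb was 219.7, 225, 210.1 and 199.6 CPM at day 0 and 79.4, 80.7 and 113 CPM at day 3. No library of day 3 reached the day 0 range, and Pdgfb fell by 1.12 on the log2 scale (SE 0.152, adjusted p = 1.87e-06). Pdgfd was 81.4, 67.9, 97.3 and 94 CPM at day 0 and 10.7, 23.3 and 12.8 CPM at day 3. It fell by 2.36 (SE 0.273, adjusted p = 1.94e-07), again without overlap. Pdgfa (0.82, adjusted p = 0.0899) was not called.

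Pdgfrb in endothelial-like cells rose by 1.48 (SE 0.616, adjusted p = 0.0453). The call was lost without any of 10 libraries (day 0 replicates 2, 3 and 4, day 3 replicates 2 and 3, day 7 replicate 3, day 21 replicates 1 and 4, and p7N3 replicates 1 and 3), with values of 1.14 to 1.47. With finer clusters, and with the listed genes allowed as variable genes, the difference was -0.97. In both of these runs the unnamed Rbp7-led cluster, with pericyte markers, was counted as endothelial-like. The summed level of the pericyte markers in these cells was 200.5 to 462.2 CPM at day 0 and 123.3 to 424.1 CPM at day 3, and that of the stromal markers 1057 to 1366 CPM and 1327 to 1914 CPM.

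The endothelial-like cells of day 0 were mostly in the Timp4-led cluster, 955 cells beside 38 in the Fam167b-led cluster, and those of day 3 were 3 and 79. Pdgfb in the Timp4-led cluster was 218 ± 10.7 CPM at day 0 and 211 ± 24.2 CPM at day 21. In the Fam167b-led cluster it was 102 CPM at day 0 (2 libraries), 89.6 ± 20 CPM at day 3, 127 ± 22.0 CPM at day 7 and 119.5 ± 30.3 CPM at day 21. The 2 day 0 libraries of the latter cluster are too few to tell whether its level changed by day 3. Pdgfd in the Fam167b-led cluster was 14.9 ± 5.45 CPM at day 3 and 36.7 ± 4.26 CPM at day 7. These cluster values are descriptions without a test.

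In the next interval, to day 7, 1 of the 4 genes changed in endothelial-like cells, beside 17.2% of all genes tested. Pdgfd rose by 1.18 (SE 0.291, adjusted p = 0.00699) to 36.8, 42.4, 38.9 and 31.6 CPM, above all day 3 libraries, and the call was lost without day 3 replicate 1 (0.98, adjusted p = 0.0638). From day 7 to day 21, 1 of the 4 changed, beside 31.2% of all genes tested. Pdgfb rose by 0.44 (SE 0.126, adjusted p = 0.011) from 111, 116, 125 and 156 CPM to 166, 198, 175 and 134 CPM, with 1 day 21 library inside the day 7 range. The Timp4-led cluster held 50 of the endothelial-like cells at day 7 and 356 at day 21, beside 534 and 273 in the Fam167b-led cluster, so a change of cells present and a change in each cell cannot be told apart here. Against day 0, 1 of the 4 differed at day 21, beside 26.8% of all genes tested. This was Pdgfd (-0.81, SE 0.184, adjusted p = 0.00214), and Pdgfb had -0.33 (adjusted p = 0.0557). The Pdgfb difference was called in 15 alternative runs, DESeq2 among them, and every day 21 library lay below every day 0 library.

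In monocyte/macrophage-like cells 5 of the 6 genes could be tested. Between day 0 and day 3, 1 of the 5 changed, beside 37.1% of all genes tested. Pdgfc was 36, 16.1, 26.7 and 41.8 CPM at day 0 and 16.1, 19.5 and 14.1 CPM at day 3, with overlap, and fell by 0.70 (SE 0.264, adjusted p = 0.0407). The call was lost without any of 10 libraries (day 0 replicates 1, 3 and 4, day 3 replicates 1 and 3, day 7 replicates 1 and 2, day 21 replicate 3, and p7N3 replicates 1 and 3), with values of -0.75 to -0.52. The cells also came from different clusters. Of the 356 cells of day 0, 309 were in the cluster led by Cd209f, Cd209g and Cd209b, against 82 of the 3778 of day 3, when 1679 were in that led by Chil3 and 1558 in that led by Ppbp. Pdgfc at day 3 was 55.0 CPM in the Cd209f-led, 26.2 CPM in the Ppbp-led and 1.85 CPM in the Chil3-led cluster. In the Cd209f-led cluster at day 0 it was 36.2 ± 15.3 CPM.

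From day 3 to day 7, 2 of the 5 changed in these cells, beside 28.4% of all genes tested. Pdgfb was 5.5, 4.46 and 5.4 CPM at day 3 and 10.8, 8.84, 10.2 and 13.9 CPM at day 7, so that every day 7 library was higher, and rose by 1.16 (SE 0.190, adjusted p = 8.71e-05). Pdgfc rose by 0.51 (SE 0.145, adjusted p = 0.0101), a call lost without day 3 replicate 3 (0.42, adjusted p = 0.0668) or day 7 replicate 3 (0.34, adjusted p = 0.0634). By cluster, Pdgfc at day 7 was 64.6 ± 16.4 CPM in the Cd209f-led cluster, which then held 449 of 4750 cells. The Chil3-led and Ppbp-led clusters held 1679 and 1558 cells at day 3, and 460 and 198 at day 7. The cluster led by Ms4a7, Syngr1 and Apoe held 36 cells at day 3 and 2056 at day 7. The part of this shift between clusters in the Pdgfb and Pdgfc rises was not tested.

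Between day 7 and day 21, 0 of the 5 changed in edgeR, beside 15.6% of all genes tested. Pdgfa (0.44, adjusted p = 0.0693) and Pdgfc (0.43, adjusted p = 0.0783) were the 2 at an unadjusted p under 0.05, and DESeq2 called 0. Against day 0, 1 of the 5 differed at day 21, beside 20.1% of all genes tested. This was Pdgfa (1.09, SE 0.301, adjusted p = 0.0116), with 17.1, 12.1, 34.3 and 13.9 CPM at day 0 and 42, 31.1, 36.4 and 31 CPM at day 21. Day 0 replicate 3 lay inside the day 21 range, and the call was lost without day 0 replicate 1 (1.05, adjusted p = 0.0559). The Cd209f-led cluster held 309 of the 356 cells of day 0 and 236 of the 673 of day 21. The part of this shift between clusters in the Pdgfa difference was not tested.

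Whether a gene changed differently in pericyte-like and stromal-like cells was tested with an interaction term over the sums of both types. Each library gave a sum of each type, and the library was a block in the model. From day 0 to day 3, 1 of the 6 genes differed in its change, beside 23.2% of all genes tested. This was Pdgfrb, whose change was 0.82 higher on the log2 scale in pericyte-like cells (SE 0.158, adjusted p = 0.000272). The median of this difference over all genes tested was 0.20. From day 3 to day 7, 2 of the 6 differed, beside 5.81% of all genes tested. The change of Pdgfd was lower in pericyte-like cells (-2.78, SE 0.551, adjusted p = 0.00225), as was that of Pdgfa (-0.86, SE 0.189, adjusted p = 0.00578), and both were lost without day 3 replicate 3 (-2.23, adjusted p = 0.098 and -0.72, adjusted p = 0.066). Pericyte-like Pdgfd had only 3, 3 and 7 UMIs in the day 3 libraries.

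From day 7 to day 21, 3 of the 6 genes differed in this way, beside 13.8% of all genes tested, and all 3 were ligands whose change was higher in pericyte-like cells. The differences were 1.77 for Pdgfc (SE 0.338, adjusted p = 0.000556), 1.33 for Pdgfd (SE 0.313, adjusted p = 0.00423) and 0.55 for Pdgfa (SE 0.179, adjusted p = 0.038). The Pdgfa difference was lost without any of 5 libraries (day 7 replicates 3 and 4 and day 21 replicates 1, 3 and 4, with values of 0.49 to 0.58). In stromal-like cells the Pdgfa and Pdgfc falls of this interval became 0.23 and 0.01 with tenocyte/chondrocyte-like cells added. The test of the difference between types was not rerun with these cells added. From day 0 to day 21, 1 of the 6 differed, beside 13.4% of all genes tested. This was Pdgfd (-1.41, SE 0.392, adjusted p = 0.0151), lost without day 0 replicate 1 (-1.16, adjusted p = 0.122) or day 0 replicate 4 (-1.17, adjusted p = 0.114). Pericyte-like Pdgfd had only 9, 3, 4 and 9 UMIs in the day 0 libraries.

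The CD47 activating peptide left the 6 genes without a called change at day 7. None of 26 comparisons over the whole site and the 4 cell types was called in edgeR, 3 had an unadjusted p under 0.05, and DESeq2 called 0. The shares of all genes tested that were called were 0.00626% at the whole site, 0.0516% in stromal-like, 0.0108% in pericyte-like, 0% in endothelial-like and 0.0174% in monocyte/macrophage-like cells, with 0 of 6, 0 of 6, 0 of 5, 0 of 4 and 0 of 5 PDGF genes. In the test of the difference between pericyte-like and stromal-like cells 0 of 6 were called, beside 0.00867% of all genes tested.

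The smallest adjusted p, 0.239, was that of Pdgfd in stromal-like cells. Its level was 12, 15.5, 17.1 and 12.5 CPM at day 7 and 11.1, 12.2, 10.3 and 8.73 CPM with p7N3, with overlap, and the log2 difference of -0.43 had a 95% interval of -0.72 to -0.14. Pdgfa had a positive difference in 5 of 5 populations, from 0.24 to 0.64. In stromal-like cells Pdgfa was 40.7, 42.6, 43 and 47.2 CPM at day 7 and 69.8, 51.1, 45 and 42.2 CPM with p7N3, and the interval of its difference was -0.01 to 0.55. The Pdgfa interval was 0.007 to 0.50 at the whole site and 0.005 to 1.27 in endothelial-like cells. It was -0.01 to 0.49 in pericyte-like and -0.04 to 0.54 in monocyte/macrophage-like cells. The populations share cells or libraries, and none of these differences passed the adjustment.

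For the receptors the intervals of the difference with the peptide were -0.03 to 0.51 for Pdgfra and -0.31 to 0.28 for Pdgfrb in stromal-like cells, and -0.26 to 0.17 for Pdgfrb in pericyte-like cells. For Pdgfb in endothelial-like cells the interval was -0.41 to 0.13. A p above the threshold does not show that the peptide had no effect, and these intervals give the range of differences left by the libraries. Genes outside the PDGF family were hardly called either, as the shares of all genes show.

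The genes around the family were taken from 3 lists of the pathway, with 11 genes for ligand processing and co-receptors, 16 for signalling next to the receptor and 12 for negative feedback. In stromal-like cells from day 0 to day 3, 9 of the 38 tested were higher and 22 lower, with a median log2 difference of -0.57 beside 0.05 over all genes, of which 31.7% were higher and 28.6% lower. Among the proteases, Pcsk5 (1.99, adjusted p = 1.73e-08) and Furin (1.24, adjusted p = 1.05e-08), proprotein convertases that cleave growth factor precursors, rose. Pcsk6, of the same enzyme family, fell by 3.88 (adjusted p = 3.8e-07) from 201.6 ± 36.3 to 11.8 ± 8.39 CPM. Pik3r1, the regulatory subunit of the lipid kinase that binds the activated receptor, fell by 2.68 (adjusted p = 1.96e-11).

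In stromal-like cells from day 3 to day 7, 8 of the 38 listed genes were higher and 11 lower, beside 19.6% and 22.1% of all genes. With total UMIs in place of TMM factors, 62.2% in place of 47% of all called genes were higher in this comparison. Pdgfrl, which encodes a protein resembling the outer part of a PDGF receptor, rose by 1.96, and Sparc, whose product binds PDGF, rose by 1.09. Plau, the urokinase protease, fell by 1.10, and the feedback inhibitor Spry1 fell by 0.60. In the last interval 11 were higher and 4 lower, beside 19.3% and 20.4% of all genes. Pcsk6 (1.88) and Spry1 (1.69) rose, while Pcsk5 fell by 1.05 and Errfi1, an inhibitor of growth factor receptor signalling, fell by 0.94. Against day 0, 9 were higher and 14 lower at day 21, beside 16.5% and 13.4% of all genes, with Thbs1 (1.67) and Pdgfrl (1.25) higher and Pcsk6 (-2.16) and Errfi1 (-1.98) lower.

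In pericyte-like cells from day 0 to day 3, 7 of the 35 tested were higher and 5 lower, beside 22% and 18.3% of all genes. Sparc rose by 1.67 and Pdgfrl by 1.51, while Errfi1 fell by 1.66 and Plcg1, a phospholipase that binds the activated receptor, fell by 1.61. In endothelial-like cells 7 of the 35 were higher and 9 lower, beside 29.4% and 26.7% of all genes. Nrp1, a co-receptor that binds several vascular growth factors, fell by 2.28 (adjusted p = 2.79e-10) from 1101 ± 61.6 to 209 ± 22.2 CPM, and the feedback inhibitor Spred2 fell by 2.44. Thbs1 and Stat5a rose by 2.79 and 2.58. In monocyte/macrophage-like cells 9 of the 36 were higher and 12 lower, beside 20.4% and 16.7% of all genes (54.9% of called genes were higher, and 35.9% with total UMIs), and Dusp6, a phosphatase of the ERK pathway, fell by 1.54. The mix of clusters in each of these types differed between day 0 and day 3, as given above. The pericyte-like sums of day 3 also held more of the stromal markers. A change of cells present and a change in each cell cannot be told apart in these sums. With p7N3, 0 of the listed genes were called in any population.

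Across the 12 cell types with a level, the genes with the most similar pattern to each of the 6 were listed by Pearson's correlation of log2(CPM + 1) among 11953 genes. For Pdgfra these were Ism1 (0.98), Ccbe1 (0.98) and Gm26771 (0.98), and for Pdgfrb Trabd2b (0.98), C1s1 (0.97) and Ebf2 (0.96). For Pdgfa they were Tbc1d19 (0.94), Jkamp (0.93) and Armc1 (0.93), and for Pdgfb Vamp3 (0.95), D8Ertd82e (0.92) and Sult1a1 (0.91). Pdgfc had Itgb5 (0.95), Nt5dc2 (0.94) and S1pr2 (0.93), and Pdgfd had Pik3r3 (0.99), Epha4 (0.96) and Smco4 (0.95). The points share their libraries, and the correlations are descriptions.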

How the data were processed

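Single cell suspensions of the injury site were sequenced with 10x Genomics 3′ v2 chemistry. The authors aligned reads to mm10 with Cell Ranger and deposited raw UMI counts per gene and barcode, without normalization. The labels' build field gives GRCh38, although the gene identifiers are those of mouse. Day 0 replicate 1 was deposited with 737280 barcodes, and cells were called in it by the filter used for all libraries. A barcode was kept as a cell if it had 500 genes or more and no more than 25% of its UMIs were mitochondrial, which left 3019467 to 39870492 UMIs per library. Clustering (scanpy 1.11.5, leidenalg 0.10.2) used 2000 variable genes without the 6 PDGF genes and 39 listed pathway genes, with 30 principal components, 20 neighbours and a resolution of 0.8, and 34 clusters were named from marker lists. No doublets were removed. Each library's counts were summed within a cell type if it held 10 cells or more, and a single model of all 5 groups was fitted per population with edgeR 4.0.16 (quasi-likelihood, TMM factors, filterByExpr, Benjamini-Hochberg). DESeq2 1.42.0, other scalings, filters and clusterings, the replicate block and each library left out were alternatives. The scripts were tested on simulated data. R 4.3.3, limma 3.58.1, Python 3.11.15, numpy 2.4.6, scipy 1.17.1 and pandas 2.3.3 were used.

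Libraries are the replicates. The study describes repeats as covering the variation between mice, and how many mice each library holds is not given in the sources used here, so p-values measure the spread between libraries. Named were the 6 PDGF genes, per population and comparison at most 2 called pathway genes in each direction whose CPM did not overlap, and the 3 genes most like each PDGF gene across cell types. A called pathway gene with no UMI in a group was left out. The genes and lists were chosen with earlier results of these data known. Intervals for p7N3 use the t distribution with 14 degrees of freedom. Sequences are from RefSeq, whose upstream table held 4 of the 6 genes.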

Additional observations from a re-analysis of the deposited data

Results flagged for a closer look

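Among 82 sets of 4 libraries that share a group, a gene and a population, 4 had a library apart from the others by Dixon's criterion, where chance gives about 1 in 20. Pdgfa at the whole site was 78.8 CPM in day 21 replicate 1 and 71.1 to 72.3 CPM in the other day 21 libraries. Pdgfa in monocyte/macrophage-like cells was 25.5 CPM in p7N3 replicate 1 and 30.5 to 30.9 CPM in the others. Pdgfa in stromal-like cells was 16.9 CPM in day 0 replicate 3 and 11.9 to 12.5 CPM in the others. Pdgfra at the whole site was 56.1 CPM in day 21 replicate 4 and 76.9 to 81.0 CPM in the others.

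The change of a gene between days differed between pericyte-like and stromal-like cells in 7 tests of that difference, given as the pericyte-like minus the stromal-like log2 change. From day 0 to day 3 it was 0.82 for Pdgfrb, beside a median of 0.20 over all genes tested. From day 3 to day 7 it was -0.86 for Pdgfa and -2.78 for Pdgfd. From day 7 to day 21 it was 1.77 for Pdgfc, 0.55 for Pdgfa and 1.33 for Pdgfd. The stromal-like changes of Pdgfc and Pdgfa in that interval depended on whether tenocyte/chondrocyte-like cells were added. From day 0 to day 21 it was -1.41 for Pdgfd. Pericyte-like Pdgfd rests on few UMIs at day 0 and day 3. The clusters that made up each type differed between the days, and the part of this in the differences was not tested.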

How the results depend on the processing

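The calls of a PDGF gene were 59, of which 7 were differences between types, rerun only with libraries left out. Of the 59, 38 kept direction and call under every alternative in which the gene was tested. The call was lost under at least 1 alternative for 19, and the sign turned under at least 1 for 3. Over 1863 recomputed values, 1778 kept the call, 81 lost it and 4 turned sign. With tenocyte/chondrocyte-like cells added to the stromal-like cells, Pdgfc and Pdgfa from day 7 to day 21 became 0.00658 and 0.23. With a clustering resolution of 2 and with the listed genes allowed as variable genes, endothelial-like Pdgfrb from day 0 to day 3 became -0.97 in both. In both runs the cluster led by Rbp7, Ablim3 and Fabp4, unnamed in the main run, was named endothelial-like. At resolution 2 it held 83 day 0 cells and 3 day 3 cells, and in the other run 82 and 3. The part of this cluster, and the cause of the other changes, were not tested.

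The calls over all 5 comparisons were 19 at the whole site, 15 in stromal-like, 8 in pericyte-like, 6 in endothelial-like and 4 in monocyte/macrophage-like cells. With at least 10 UMIs in every library they were 7, 4 and 3 in the stromal-like, pericyte-like and endothelial-like cells. Fewer genes were tested under this filter, and no PDGF gene was left in the monocyte/macrophage-like cells. Pericyte-like Pdgfrb from day 7 to day 21 also lost its call (0.17, adjusted p = 0.143). Pericyte-like Pdgfa and endothelial-like Pdgfb gained a call from day 0 to day 21. Endothelial-like calls were 10 without a filter on low counts. Monocyte/macrophage-like calls were 2 with replicates 1 to 3 only. Leaving out each library gave 17 to 19, 14 to 17, 7 to 9, 5 to 9 and 2 to 4 calls in the order above, and 5 to 8 for the difference between types (7 with all libraries). The 2 monocyte/macrophage-like calls came without day 0 replicate 1 or day 3 replicate 3. The stromal-like share of Pdgfra UMIs, 80.5%, became 88.4% at resolution 2 and 93.4% with the listed genes allowed. In the latter clustering the stromal-like shares of Pdgfc, Pdgfd and Pdgfrb were 62.4%, 51.3% and 55.5%, in place of 51.6%, 39.1% and 47.0%. It had 1100 tenocyte/chondrocyte-like cells in place of 3273.

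With the replicate number as a block the calls were 19, 15, 8, 6 and 4. The median correlation of the deviations of same-numbered libraries was -0.02 to 0.01 over 36 pairs, and the highest was 0.119 to 0.229. Of 19 libraries, 1 to 5 correlated best with their own number. A median over all pairs cannot show a deviation shared by 1 number only, such as replicate 4, which has no day 3 library. Total-UMI scaling, the 2 changes to the stromal-like clusters and the libraries left out of the test between types were chosen after seeing the data. Total-UMI scaling turned no called PDGF change, but moved the share of calls that were higher by over 10 percentage points in 10 of 25 comparisons, among them from 50.9% to 32.2% at the whole site from day 0 to day 3. Levels of a few CPM at day 0 rest on few UMIs.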

Other observations

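Schwann-like cells, too few for a test over the days, had both Pdgfa and Pdgfb. Pdgfa was 187, 238, 179.9 and 184 CPM in their day 0 libraries, 268, 273 and 371 CPM in 3 day 7 libraries and 379, 407, 340.4 and 242 CPM at day 21. Pdgfb had no UMI in 3 of the 4 day 0 libraries and 12.7 CPM, from 2 UMIs, in the other. It was 65.1, 71.4 and 63.4 CPM at day 7 and 49.3, 28.5, 7.4 and 28.8 CPM at day 21.

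The unnamed cluster led by Mmp9, Acp5 and Slc9b2, genes known from osteoclasts, had 33.8 ± 8.18 CPM of Pdgfb at day 3, 38.9 ± 8.51 CPM at day 7 and 37.9 ± 14.2 CPM with p7N3. The monocyte/macrophage-like cells of day 7 had 8.84 to 13.9 CPM.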
